A study of Mus musculus with 8 samples.

Results

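Cluster m10 of the mouse liver mesenchyme comprised 127 single cells, which were taken as every cell that the deposited annotation of the mesenchymal subset placed in multilevel cluster 10. They were 127 of 3491 cells in the whole data set and of 1337 mesenchymal cells, 998 of which came from males. All 127 came from the male mesenchymal pool, a grouping of cells by class and sex in the labels that does not tell individual mice apart. The study profiled single cells of healthy, untreated adult mouse liver by Smart-seq2, a plate-based method that reads full-length transcripts without molecular identifiers. The mice were on a C57BL6/J background and carried, in various combinations and in heterozygous form, the fluorescent reporters Pdgfrb-GFP, Pdgfra-H2bGFP, Cspg4-dsRED, Acta2-GFP and Cldn5-GFP. Livers were dissociated with enzymes, and mesenchymal cells were sorted singly into plates by the Pdgfra, Pdgfrb and Acta2 reporters or by antibodies to PDGFRα. The strain, the animal and the age behind each plate were not given in the sources used here. Each reporter marks the cells in which its promoter is active, so the sort set which mesenchymal cells could be seen, and the level of Pdgfra in a sorted cell is not a finding.

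Cluster m10 was compared with the other fibroblast clusters of the same subset, m1 with 88 male cells, m4 with 89 and m8 with 156, and with 195 other mesenchymal cells that shared its main plate. The study gave m1 the name of NCAM1+ fibroblasts related to the Glisson capsule and m4 that of peribiliary fibroblasts, and it gave m8 and m10 no name of their own. The question that these comparisons address is in which genes m10 differed from the fibroblasts beside which it was clustered.

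Fibroblasts build and remodel the connective tissue of an organ by secreting collagens, elastic fibre proteins and proteoglycans. In the liver they lie in the portal tracts, around bile ducts, along larger vessels and in the capsule. Hepatic stellate cells are a separate mesenchymal type of the lobule, which wrap the sinusoids and store vitamin A as retinyl esters made by the enzyme LRAT.

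Of the 127 cells, 126 carried the label of portal fibroblasts and 1 that of venous smooth muscle cells. The sorting plate liver_440s held 105 of them (82.7%, exact binomial 95% interval 75 to 88.8%). The remaining cells were spread over plate liver_Acta2_184s with 10 (7.87%), plate liver_Rb_573s with 7 (5.51%) and plate liver_128s with 5 (3.94%). The reference clusters were unevenly spread as well. Cluster m4 had 54 of its 89 cells on plate liver_440s, cluster m8 had 153 of 156 (98.1%) on plate liver_Rb_573s, and cluster m1 had 1 male cell on plate liver_440s and 14 on plate liver_128s. When all cells of the liver were clustered together, 120 of the 127 (94.5%) fell into a cluster of 283 cells that also held 149 cells of m8, 7 of m1 and 1 of m4. In the finer community clustering of the mesenchyme, 96 cells (75.6%) were in community cluster 13 and 28 (22%, 15.2 to 30.3%) in community cluster 17.

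**Figure D1:**
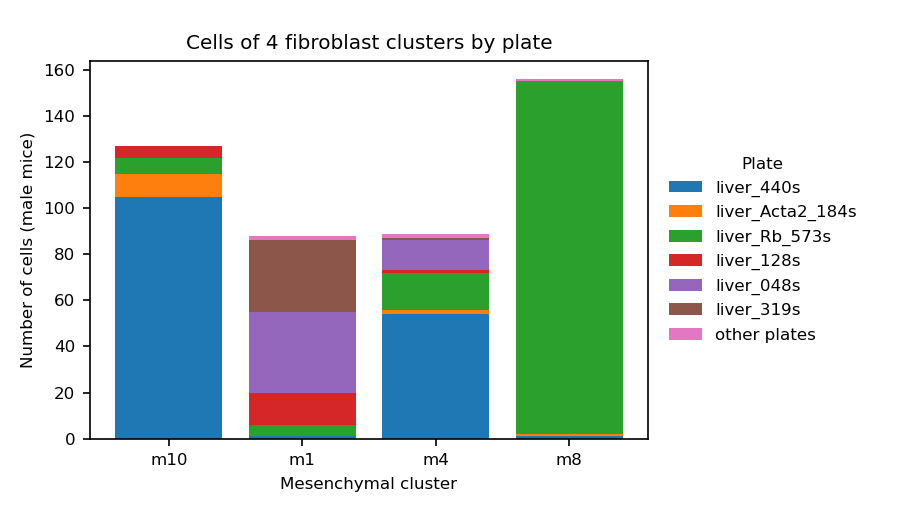
Stacked bars give the number of cells (y axis) of clusters m10, m1, m4 and m8 (x axis) from the male pool, with colours for the sorting plates. Cluster m10 sits mostly on plate liver_440s with 105 cells and cluster m8 on plate liver_Rb_573s with 153, whereas m4 has 54 of its 89 cells on plate liver_440s.

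All of these cells belonged to 1 male pool and the clusters were made from the same transcriptomes, so no test across replicates was possible and none is reported. Levels are the counts summed over the cells of a cluster and scaled to 1000000 (CPM), with an exact Poisson 95% interval, and shares of cells carry exact binomial 95% intervals. Both cover counting error only, and Smart-seq2 reads are not independent molecules. The reference level is the mean CPM of male m1, m4 and m8 with equal weight, and differences are log2 ratios after adding 0.5 CPM. A gene was called where it differed at least 2-fold, reached 10 CPM on the higher side and had a count in at least 50% of the cells there. Fewer cells with a gene and less of its RNA per cell cannot be told apart in a summed level, so shares of cells are given beside it.

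The median cell of m10 had 262143 counts (53146 to 568951) and 4093 detected genes, close to the medians of m1 with 284074 counts and m4 with 259246. Cluster m8 was shallower, with a median of 114907 counts and 2404 genes. Mitochondrial counts made up a median of 1.54% in m10, and 1.46%, 1.62% and 2.05% in m1, m4 and m8. No 2 male mesenchymal cells had identical counts, and no cell name was used more than once.

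The cells of m10 expressed the pan-fibroblast genes. Of 14 pan-fibroblast genes, 13 reached 10 CPM, with a summed level of 30963 CPM against 33192 in m1, 36139 in m4, 54645 in m8 and 133 in liver endothelial cells. The capsular stellate cells, with 34611, and the second-layer cells, with 36880, were at or above that level and the stellate cells at 22188, so the list marks mesenchyme and does not tell these clusters apart. Pdgfra, the receptor for platelet-derived growth factor that served in the sort, stood at 513 CPM (505 to 521) and had a count in 118 cells (92.9%, 87.0 to 96.7%). With the stricter limit of 20 counts per cell, Pdgfra was present in 69.3% of the cells. Its level was 470 CPM in m1, 908 in m4 and 429 in m8. At 50 CPM or more it was present in 75.6% of m10 cells and also in 61.5% of the capsular stellate cells, 48.5% of the stellate cells and 47.0% of the second-layer cells.

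Ncam1, a neural cell adhesion molecule, was found in a minority of the cluster. It stood at 63.4 CPM (60.8 to 66.2) and had a count in 43 of 127 cells (33.9%, 25.7 to 42.8%), and 18 cells (14.2%, 8.62 to 21.5%) had at least 20 counts. The level was 96.8 CPM in m1, 38.2 in m8 and 0.784 in m4, and 343 CPM in the capsular stellate cells of community cluster 3. Both Ncam1 and Pdgfra reached 50 CPM in 16 cells of m10 (12.6%). Pdgfra was thus present in most cells and Ncam1 in few, and neither gene was called for m10 against the mean of the reference clusters.

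Markers of endothelial, immune, bile duct, mesothelial and Schwann cells were low in m10, whereas mural genes were not. The summed level of 8 endothelial genes was 18.8 CPM against 9012 in endothelial cells, that of 9 immune genes 19.8 against 12120 in immune cells, and that of 6 cholangiocyte genes 0.833 against 4621 in epithelial cells, with Epcam and Cldn4 at 0. The 9 mesothelial genes summed to 10.8 CPM with Gpm6a, Lrrn4 and Muc16 at 0, and the 7 Schwann cell genes to 1.87 CPM with Sox10, Cdh19 and Erbb3 at 0. Of 14 mural genes, those of pericytes and smooth muscle cells, 9 reached 10 CPM in m10, with a summed level of 3111 CPM against 2048 in m1, 1799 in m4 and 2607 in m8, and 3384 in the second-layer cells. Notch3 is on this list and was called higher in m10, and Acta2 is on it and was called lower, and the part of mural RNA in these levels was not tested. Hepatocyte genes summed to 1364 CPM in m10, within the range of the reference clusters from 1247 in m8 to 1700 in m4.

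The 8 genes that the study used for peribiliary fibroblasts were lower in m10 than in m4, with a median log2 ratio of -3.99 beside -0.06 over all genes, and all 4 that entered the rule were called lower beside 4.66% of all genes. The study named these genes for m4 in the same data, so their lower level than in m4 follows from that choice and is a description. Against m1 the median was -0.28 and Col15a1, a basement membrane collagen, was called higher with 176 CPM against 47.1, while against m8 the median was -0.90. Wif1, a secreted Wnt inhibitor, stood at 0.536 CPM against 362 in m4, and no cell of m10 reached 50 CPM against 37.1% of m4. Pi16, a peptidase inhibitor of adventitial fibroblasts, stood at 1.04 CPM against 283 in m4, and Gfra2, a co-receptor for neurturin, at 13.9 against 300. Thy1, a surface glycoprotein of fibroblasts, reached 50 CPM in 15% of m10 cells, near the 11.4% of m1 and 17.3% of m8, and in 71.9% of m4 cells. The 5 genes that served for the Wt1-expressing fibroblasts stood in m10 at 0.714 CPM for Scara5, 4.46 for Wt1, 8.27 for Adgrd1, 13.6 for Osr1 and 13.8 for Fbln2. None of them entered the rule, and 4 had 10 CPM or more in m10 or the reference, with a median log2 ratio of -1.72. Ngfr, the low-affinity neurotrophin receptor that the study pairs with Ncam1 in the capsule-related cells, stood at 147 CPM in m10, 146 in m1, 118 in m4 and 178 in m8. Within m10 the level of Ngfr was not uniform, with 167 CPM on plate liver_440s, 21.3 on plate liver_Acta2_184s, 0.906 on plate liver_Rb_573s and 1.26 on plate liver_128s.

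Against the mean of m1, m4 and m8, 106 of 2236 genes that entered the rule were called higher in m10 (4.74%) and 46 lower (2.06%). After scaling by trimmed mean of M values (TMM), a method that corrects for a few genes taking much of a library, the counts were 71 higher and 58 lower, so that the share of calls on the higher side went from 69.7% to 55.0%. The median of the tested genes moved from 0.03 to -0.09 on the log2 scale. More than 2-fold from each of the 3 reference clusters separately were 33 genes on the higher side (1.48%) and 11 on the lower side (0.492%). By TMM, 18 of the 33 and all 11 of the 11 were still past 2-fold from each.

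The leading genes on the higher side included Lrat, Ednrb, Itga1, Adra2b and the receptor genes Notch1 and Notch3. Lrat, which esterifies retinol for storage, stood at 337 CPM (331 to 343) in m10, at 77.8 in m1, 22.9 in m4 and 55.0 in m8, a log2 ratio of 2.69 to their mean. Ednrb, the endothelin receptor type B, stood at 682 CPM (674 to 691) against 228, 3.53 and 161, a log2 ratio of 2.38. Itga1, the integrin subunit of a collagen and laminin receptor, stood at 192 CPM (187 to 196) against 58.4, 19.3 and 16, a log2 ratio of 2.60. These genes were picked for this difference, so their levels are a description.

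Adra2b, an alpha-2 adrenergic receptor, had 179 CPM against a mean of 29.6, a log2 ratio of 2.58. Notch3 had 262 CPM against a mean of 53.1 and Notch1 297 against 75.3, log2 ratios of 2.29 and 1.97. Both are receptors through which neighbouring cells signal by contact. Lrp5, a co-receptor for Wnt ligands, had 302 CPM against 69.2, and Fn1, which encodes the matrix glycoprotein fibronectin, 261 against 70.8. Adamts5, a protease that cleaves aggrecan and other proteoglycans, had 541 CPM against 214 in m1, 119 in m4 and 213 in m8. The other leading genes included the semaphorin Sema6d at 208 CPM, the transcription factor Tbx20 at 180 CPM and the integrin subunit Itga9, with log2 ratios of 2.13, 1.77 and 2.0. Notch1 and Tbx20 were no longer 2-fold above m8 by TMM, with log2 ratios of 0.90 and 0.85.

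**Figure D2:**
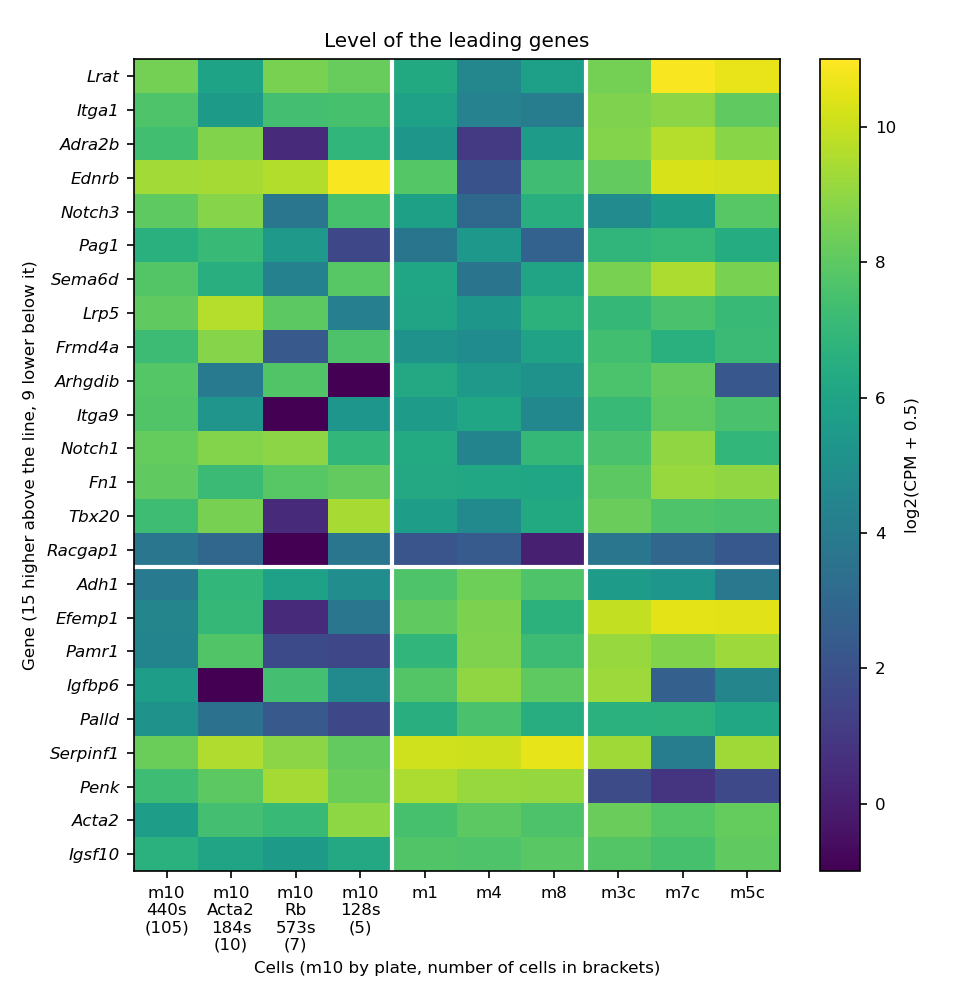
Heat map of log2(CPM + 0.5), from dark for low to yellow for high, of the 15 leading higher genes and the 9 leading lower genes (rows) in m10 by plate with its number of cells, in m1, m4 and m8, and in the capsular stellate (m3c), stellate (m7c) and second-layer cells (m5c) of the same pool. Lrat is brighter in 3 of the 4 columns of m10 than in m1, m4 and m8, with 62.0 CPM on plate liver_Acta2_184s, and Serpinf1 is darker in all 4, while Adra2b and Tbx20 are dark on plate liver_Rb_573s.

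The higher levels came with larger shares of cells. At 50 CPM or more, Ednrb was present in 70.1% of m10 cells, in 33.0% of m1, in 20.5% of m8 and in none of the 89 cells of m4. Lrat was present in 47.2% of m10 cells against 17%, 4.49% and 6.41% in m1, m4 and m8, and Itga1 in 47.2% against 18.2%, 6.74% and 6.41%. Adamts5 was present in 73.2% against 42.0%, 29.2% and 28.2%. With every cell thinned to 50000 counts, 1 count or more of Lrat was found in 55.9% of m10 cells, 20.7% of m1, 18.0% of m4 and 21.2% of m8, and of Ednrb in 77.2%, 41.4%, 15.7% and 29.5%. Thinning lowered the number of genes called higher than m8 from 283 to 139. Each of these genes reached 50 CPM in a part of the cluster, and the cells varied. Cells without a gene were not told apart from cells in which it was missed. Lrat had a median of 23.6 CPM per cell with quartiles of 0.879 and 448, and Ednrb a median of 457 with quartiles of 21.7 and 1142. Of the 15 leading higher genes the median m10 cell had 6 at 50 CPM or more, with quartiles of 4 and 8, against 2 in m1 and 1 in both m4 and m8. The median was 6 in the second-layer cells, 7 in the stellate cells and 4 in the capsular stellate cells, so the count did not set m10 apart from these. The genes were chosen for this difference, so the per-cell count is a description.

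Several of the leading genes are also genes of stellate cells, and levels in the stellate clusters of the same pool are given beside them. Lrat stood at 359 CPM in the capsular stellate cells of community cluster 3, at 1873 in the stellate cells of community cluster 7 and at 1554 in the second-layer cells of community cluster 5. Ednrb stood at 281, 1221 and 1158 CPM in these cells. Reln, the secreted glycoprotein reelin and a defining gene of liver stellate cells, stood apart from this pattern. It had 4.05 CPM (3.4 to 4.79) in m10 against 1529 in the capsular stellate and 3663 in the stellate cells. At least 50 CPM of Reln were found in 0 of 127 cells of m10 (upper bound 2.86%), in 72.5% of the capsular stellate cells and in 97.1% of the stellate cells. At 1 count or more Reln was seen in 59.8% of m10 cells, with no cell at 20 counts.

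Counted jointly in the same cell, Lrat without Reln was found in 60 of 127 m10 cells (47.2%, 38.3 to 56.3%) and Lrat with Reln in none, each at 50 CPM or more. Lrat without Reln was also found in the second-layer cells, in 34 of 66 (51.5%, 38.9 to 64.0%). Both genes together reached 50 CPM in 19 of these 66 cells (28.8%), in 56 of 68 stellate cells (82.4%) and in 31 of 91 capsular stellate cells (34.1%). In 46 m10 cells (36.2%) Lrat came with Pdgfra, and in 47 (37.0%) with Ednrb.

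**Figure D3:**
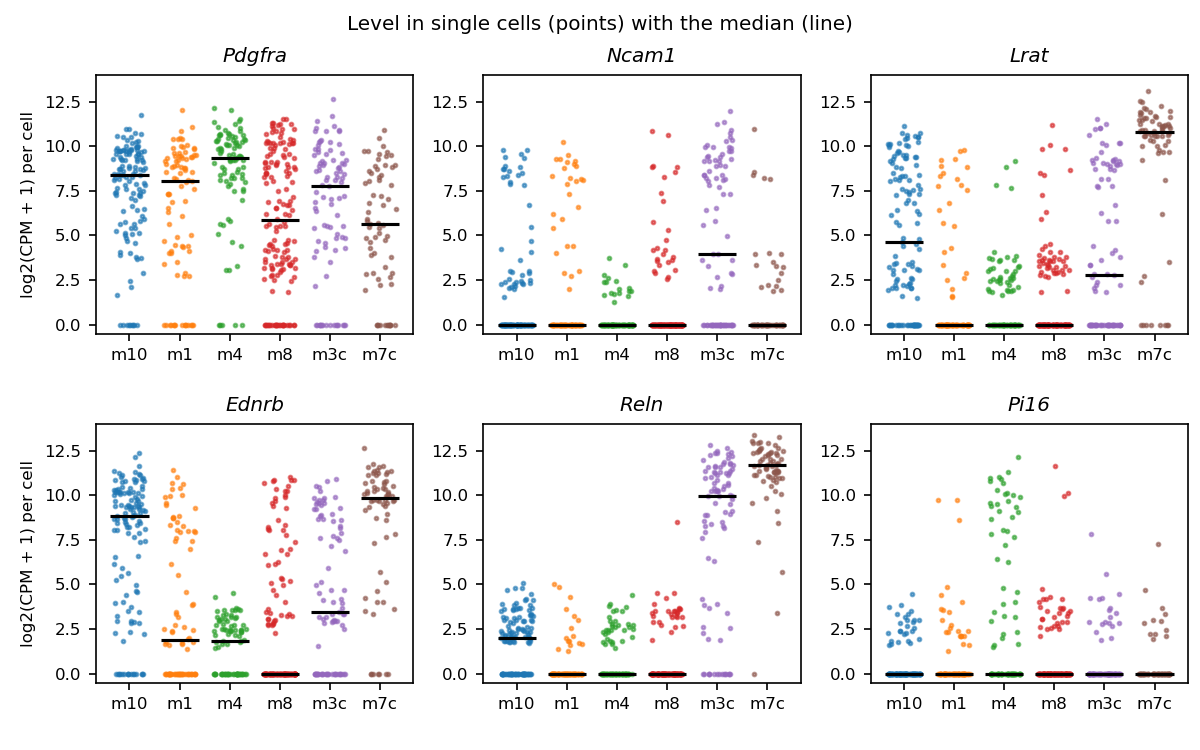
Level per cell as log2(CPM + 1) (y axis) of 6 genes in m10, m1, m4, m8, capsular stellate cells (m3c) and stellate cells (m7c), with 1 point per cell and a line at the median. In m10 the points of Lrat spread from 0 to the levels of stellate cells, whereas no m10 cell reaches 50 CPM of Reln or Pi16.

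As a list, the 16 stellate cell genes had a summed level of 3216 CPM in m10, against 2541 in m1, 1824 in m4, 3235 in m8 and 26271 in the stellate cells. Of its 5 members that entered the rule, 3 were called higher and 0 lower against the reference, beside 4.74% and 2.06% of all genes, and the 12 members at 10 CPM or more had a median log2 ratio of 0.74 beside 0.02 over 10619 genes at that level. The 3 were Lrat, Colec11 and Plvap. Colec11, a collectin that binds microbial sugars, had 923 CPM against 626 in m1, 145 in m4 and 391 in m8. Plvap, a protein of vesicle diaphragms, had 142 CPM against 128 in m1 and 57.0 in m8, with the lowest level in m4. A longer stellate signature, which the study took from another data set and which was brought in after values had been seen, had 157 of 186 genes at 10 CPM or more. Of the 71 that entered the rule, 23 were called higher in m10 and 3 lower, beside 4.74% and 2.06% of all genes, and the median log2 ratio of the 157 was 0.50. Against m4 on plate liver_440s, 37 of 93 that entered were higher and 9 lower, beside 8.62% and 6.50% of all genes. Against m1 on plate liver_128s, 32 of 86 were higher and 20 lower, beside 19.1% and 32.5%. Against m8 on plate liver_Rb_573s, 7 of 37 were higher and 6 lower, beside 19.2% and 13.8%, so both shares there were near those of all genes. The medians on these plates were 0.56, 0.41 and -1.03, beside -0.05, -0.91 and -1.63 over all genes at that level.

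On the lower side the largest differences were those of Adh1, Efemp1 and Pamr1. Adh1, an alcohol dehydrogenase that oxidises retinol and ethanol, had 24.6 CPM (23 to 26.4) in m10 against 210 in m1, 323 in m4 and 208 in m8, a log2 ratio of -3.30. Efemp1, the elastic fibre glycoprotein fibulin-3, had 28.4 CPM (26.6 to 30.2) against 272, 396 and 103, a log2 ratio of -3.16. Pamr1, a secreted protein with protease-like domains, had 34.4 CPM against 119, 412 and 150, a log2 ratio of -2.70. Efemp1 and Adh1 reached 50 CPM in 5.51% and 7.87% of m10 cells and in between 14.1% and 53.9% of the cells of the reference clusters.

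Serpinf1, which encodes the anti-angiogenic pigment epithelium-derived factor, had 352 CPM (346 to 358) against a mean of 1240, a log2 ratio of -1.82. It reached 50 CPM in 40.2% of m10 cells against 76.1% of m1, 88.8% of m4 and 73.7% of m8. Penk, the precursor of enkephalins, had 181 CPM against 613, and Igfbp6, which binds insulin-like growth factor 2, 52.1 against 331. Palld, an actin-associated scaffold, had 32.3 CPM, with a log2 ratio of -1.91. Acta2, the smooth muscle actin that marks contractile cells, had 75.1 CPM against 210. In the 22 m10 cells outside plate liver_440s the log2 ratio of Acta2 to the reference was 0.07, so its lower level was not seen without the main plate, and that of Itga9 was -0.70 on that basis.

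Because cluster and plate overlap, the calls were read again within plates that held cells of both clusters. On plate liver_440s, with 105 cells of m10 and 54 of m4, 256 of 2971 genes were called higher in m10 (8.62%) and 193 lower (6.50%). All 217 genes called higher in m10 than in the whole of m4 (8.71%) had the same direction there and 193 were past 2-fold, although both sets share most of their cells. On plate liver_Rb_573s, with 7 cells of m10 and 153 of m8, where 19.2% of 1672 genes were called higher and 13.8% lower, 153 of the 283 genes called higher than m8 (12.8%) kept that direction, 98 of them past 2-fold, and 91 were past 2-fold the opposite way. On plate liver_128s, with 5 cells of m10 and 14 of m1, where 19.1% of 3614 genes were called higher and 32.5% lower, 109 of the 210 genes called higher than m1 (8.25%) kept their direction, 66 past 2-fold, with 63 past 2-fold the opposite way. The genes called lower were read in the same way. All 116 genes lower than m4 (4.66%) were lower on plate liver_440s, 104 past 2-fold. Of 66 lower than m8 (2.98%), 58 were lower on plate liver_Rb_573s, 22 past 2-fold and 0 past 2-fold the opposite way. Of 142 lower than m1 (5.58%), 108 were lower on plate liver_128s, 82 past 2-fold, with 16 past 2-fold the opposite way. On these plates a level in m10 rests on 7 and 5 cells, and the median of all genes at 10 CPM or more there was -1.63 and -0.91.

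The plates themselves differed within clusters. Between plates liver_440s and liver_Rb_573s, 29.8% of the genes tested in m4 were called higher on the former and 5.50% lower, and in m3, a multilevel cluster of stellate cells with Reln at 2548 CPM on plate liver_440s, 27.8% and 6.39%. Of the 283 genes called higher in m10 than in m8, 148 (52.3%) were at least 2-fold higher in the m4 cells of plate liver_440s than in those of plate liver_Rb_573s, beside 27.0% of all 2218 genes that entered the rule. In m3, 113 (39.9%) were, beside 28.1%. Of the 66 genes called lower than m8, 34 (51.5%) were at least 2-fold lower in the m4 cells of plate liver_440s, beside 7.71%. In m3, 38 (57.6%) were, beside 9.15%. Of the 33 genes past 2-fold above each reference cluster, 20 (60.6%) were at least 2-fold higher in the m4 cells of plate liver_440s and 12 (36.4%) in the m3 cells. The part of the plate in the levels of these genes was not tested further, and for m8 the plate and the cluster cannot be told apart beyond the 7 cells of m10 on plate liver_Rb_573s.

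Past 2-fold in the same direction on all 3 plates were 8 of the 33 higher genes, namely Lrat, Itga1, Ednrb, Lrp5, Notch1, Fn1, Gja4 and Adamts5. Ednrb had log2 ratios of 7.03 on plate liver_440s against m4, 2.43 on plate liver_Rb_573s against m8 and 2.61 on plate liver_128s against m1. Lrat had 3.43, 2.75 and 2.0, and Adamts5 2.33, 1.95 and 2.72. Gja4, a connexin of gap junctions that was named after its values were seen, had 3.27, 1.29 and 3.51, and by TMM a log2 ratio of 0.77 to the whole of m8. On the lower side 5 of the 11 genes did so, namely Adh1, Efemp1, Pamr1, Palld and Serpinf1, with Serpinf1 at -1.79, -1.63 and -2.01. The 33 and the 11 genes were chosen on levels that include the cells of these plates, so the counts of 8 and 5 are a description. The share of all genes past 2-fold on all 3 plates was not counted. Other leading genes turned on plate liver_Rb_573s, among them Adra2b with a log2 ratio of -4.46, Notch3 with -2.90, Tbx20 with -5.85, Sema6d with -1.55 and Itga9 with -5.61. Itga9 was also turned on plate liver_128s, with -1.65.

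On the small plates a few cells carried these levels. Ednrb reached 50 CPM in 76 of 105 m10 cells and 0 of 54 m4 cells on plate liver_440s, in 5 of 7 m10 cells and 31 of 153 m8 cells on plate liver_Rb_573s, and in 3 of 5 m10 cells and 7 of 14 m1 cells on plate liver_128s. Lrat did so in 54 of 105 and 4 of 54 cells on plate liver_440s, and in 3 of 7 and 10 of 153 on plate liver_Rb_573s. On plate liver_128s, however, Lrat reached that level in 1 of 5 m10 cells and in 5 of 14 m1 cells, so the share there went the other way from the summed level. Notch1 did so in 1 of 5 and 3 of 14 cells there. On plate liver_Rb_573s Lrp5 and Gja4 each reached it in 1 of 7 m10 cells, against 19 and 16 of 153 m8 cells, and on plate liver_128s each did so in 1 of 5. Adamts5 reached it in 4 of 7 and in 5 of 5 m10 cells, against 44 of 153 m8 and 7 of 14 m1 cells.

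**Figure D4:**
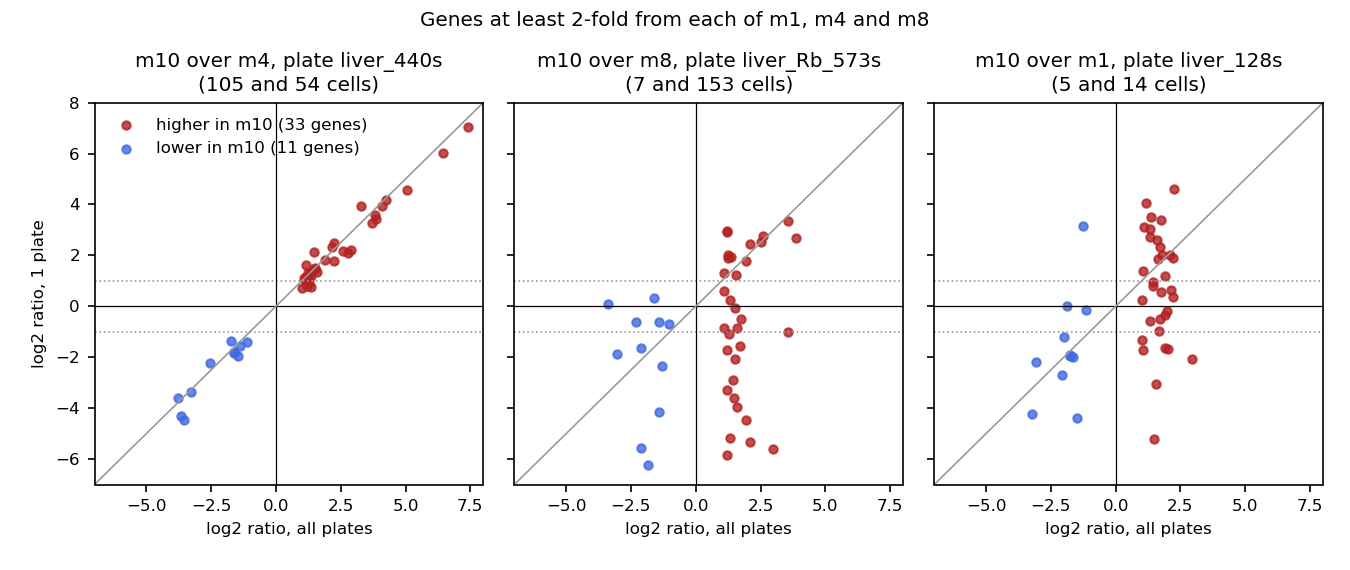
Log2 ratio of m10 to a reference cluster within 1 plate (y axis) against the ratio over all plates (x axis), for the 33 higher genes in red and the 11 lower genes in blue, in a panel each for m4 on plate liver_440s, m8 on plate liver_Rb_573s and m1 on plate liver_128s. The diagonal marks equal ratios and dotted lines mark 2-fold. Points on plate liver_440s lie along the diagonal, whereas 13 red points lie past 2-fold the opposite way on plate liver_Rb_573s and 7 on plate liver_128s.

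Among 7 fibrillar collagen genes at 10 CPM or more, 5 entered the rule, of which 3 were called lower and 0 higher beside 2.06% and 4.74% of all genes, with a median log2 ratio of -0.65 over the 7. Col1a1 and Col1a2, the chains of collagen I, stood at 2479 and 2254 CPM in m10, and the reference clusters lay between 3114 and 6821 for Col1a1 and between 2582 and 6304 for Col1a2. The third gene, Col5a2, had 172 CPM against 333 in m1, 456 in m4 and 407 in m8. Against m1 alone no fibrillar collagen was called and the median was -0.20, with medians of -1.01 against m4 and -1.06 against m8. On plate liver_128s, with 5 cells of m10, 3 of 5 that entered were called lower than in m1, beside 32.5% of all genes. Of 20 other collagen genes, 9 small leucine-rich proteoglycans and 11 genes of laminins and the basement membrane, 9, 7 and 8 entered the rule and none of these was called, with median log2 ratios of -0.46, 0.02 and 0.37. Of 14 elastic fibre genes that entered, Efemp1 alone was called, and of 13 matricellular genes Fn1 alone. Among 17 proteases and inhibitors, Adamts5 was called higher, and Plat, the tissue plasminogen activator, and Serpinf1 were called lower. Of 5 adventitial fibroblast genes that entered, Efemp1 and Cd34 were called lower, Cd34 with 471 CPM against 983 in m1, 1324 in m4 and 727 in m8.

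Calls among signalling genes were read against the shares over all genes, 4.74% higher and 2.06% lower. Of 13 growth factor genes that entered the rule, 2 were called higher and 1 lower. Of them, Igfbp5, which binds insulin-like growth factors, was higher with 147 CPM against 80.8 in m1, 8.62 in m4 and 106 in m8, and Igfbp6 was lower. Within plates, Igfbp5 was called higher than m4 on plate liver_440s and than m8 on plate liver_Rb_573s. On plate liver_128s it was called lower than m1. Of 9 chemokine and cytokine genes that entered, Cx3cl1, the ligand fractalkine, had 570 CPM against 195, 279 and 316, and Osmr, the receptor subunit for oncostatin M, 545 against 281, 292 and 227. Both were called higher, and none of the list was called lower. Within plates, both were called higher than m8 on plate liver_Rb_573s and neither was called against m4 on plate liver_440s. On plate liver_128s Osmr was called lower than m1. Of 8 genes of axon guidance, adhesion and neural function that entered, 2 were called higher and 1 lower. Plxna4, a semaphorin receptor, was called higher with 602 CPM against 329 in m1, 147 in m4 and 263 in m8. Ntrk2, the receptor for brain-derived neurotrophic factor, was called lower with 188 CPM against 296 in m1, 929 in m4 and 274 in m8.

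No member was called among 19 Wnt pathway genes, 21 genes of the BMP and TGF-beta pathway, 20 interferon-stimulated genes or 11 hedgehog genes. Of these, 4, 12, 8 and 2 had counts in enough cells to enter the rule. Their median log2 ratios were -0.52, -0.15, 0.14 and -0.17. Lrp5 was not on the Wnt list. Of 9 mesenchymal transcription factors that entered, Tbx20 alone was called, and of 17 genes of retinoid, lipid and detoxification pathways Lrat was called higher and Adh1 lower. Of 19 immediate early and stress genes that entered, 4 were called lower, namely Fosb, Btg2, Socs3 and Gadd45b, and the median was -0.62. These are genes that cells switch on within minutes of stimulation or tissue dissociation, and they varied within m10.

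The comparison with m8, which shared a cluster with m10 when all liver cells were analysed, depended most on scaling. By library size 283 genes were higher (12.8%) and 66 lower (2.98%) of 2218, and by TMM 108 were higher and 141 lower, so that the share on the higher side went from 81.1% to 43.4%. The median of the tested genes moved from 0.23 to -0.10. Ptges, which makes prostaglandin E2, had 179 CPM in m10 and 17.1 in m8, with 159 in m1 and 285 in m4, so its level was low in m8 rather than high in m10. Glul, glutamine synthetase, was lower in m10 with 228 CPM against 1063 in m8, as were the transcription factor Cebpd with 353 against 1029 and the clock gene Per1 with 89.3 against 286. On plate liver_Rb_573s, with 7 cells of m10, Glul stood at 390 CPM in m10 and 1086 in m8, and Ptges at 178 and 17.5 CPM. Of the 66 genes lower than m8, 34 were also at least 2-fold lower in m4 on plate liver_440s than on plate liver_Rb_573s. The part of the plate in the levels of Glul, Cebpd and Per1 was not tested.

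Against m1, 210 of 2546 genes were higher in m10 (8.25%) and 142 lower (5.58%), and against m4, 217 of 2491 were higher (8.71%) and 116 lower (4.66%). By TMM these counts were 205 and 154, and 211 and 119. Over 11511 genes, the profile of m10 had a Pearson correlation of 0.809 with m8, 0.803 with the second-layer cells, 0.794 with the capsular stellate cells, 0.793 with m1, 0.781 with m4 and 0.747 with the stellate cells. These correlations run across genes, which are not independent, and the populations share a pool and in part their plates, so neighbours in this order are not set apart by them.

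Compared with the 195 other mesenchymal cells of its main plate, m10 had 79 of 2498 genes higher (3.16%) and 71 lower (2.84%). That group held 66 cells of m3, 54 of m4, 34 of m7 and 29 of m5, so it is a mixture of several mesenchymal clusters. Higher in m10 were F3, the tissue factor that starts coagulation, with 581 CPM against 87.1, the collagen-binding proteoglycan Fmod with 1929 against 480 and the complement component C4b with 1637 against 411. F3, Fmod and C4b were also called higher than in m4, but not against m1, m8 or the 3 clusters together. Lower were Gdf2, which encodes BMP9, with 2.36 CPM against 490, Reln with 4.31 against 824, Efemp1 with 21.6 against 621 and Acta2 with 53.1 against 706. Against the m3 cells of that plate, 208 genes were higher (8.30%) and 154 lower (6.15%). Wt1, a transcription factor of the mesothelium, had 5.0 CPM in m10 and 241 in m3 on plate liver_440s, and Lhx2, a stellate cell transcription factor, 3.73 and 237. Penk ran the other way, with 152 CPM in m10 and 2.14 in m3.

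Within m10, the cells of the main plate and the 22 cells of the other plates were not alike in every gene. Of 2506 genes, 408 were called higher on the main plate (16.3%) and 106 lower (4.23%). Lrat stood at 360 CPM on plate liver_440s, 62.0 on plate liver_Acta2_184s, 381 on plate liver_Rb_573s and 292 on plate liver_128s. Ednrb stood at 648, 660, 776 and 1890 CPM in the same order, and Adamts5 at 526, 326, 850 and 1355. Efemp1 stayed low on plates liver_440s, liver_Rb_573s and liver_128s with 21.6, 0.906 and 12.6 CPM, and had 125 on plate liver_Acta2_184s. On plate liver_Acta2_184s, Lrat was thus below the 77.8 CPM of m1 and Efemp1 above the 103 of m8.

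The 28 cells of community cluster 17 and the 96 of community cluster 13 differed in immediate early genes. Of 20 such genes that entered the rule, 18 were called lower in community cluster 17 and 0 higher. The 27 at 10 CPM or more had a median log2 ratio of -2.46 beside -0.09 over all genes at that level. In this comparison 446 of 2828 genes were called lower (15.8%) and 400 higher (14.1%). Fos, a subunit of the AP-1 transcription factor, had a median of 38 CPM per cell in community cluster 17 and 1376 in community cluster 13, and Jun, its partner, 17.6 and 785. Summed per cell over the list, the median was 2041 CPM with quartiles of 1041 and 3772 in community cluster 17, and 11750 with quartiles of 6719 and 17960 in community cluster 13. On plate liver_440s alone the medians were 2041 in 24 cells and 10638 in 81 cells, so the difference was present within a plate.

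The cells of community cluster 17 were also shallower and carried more spike-in RNA. Their median was 134604 counts against 300354, their median share of ERCC spike-ins 2.22% against 0.909%, and their mitochondrial share 3.07% against 1.38%. Higher in them were the nuclear long noncoding RNA Kcnq1ot1 with 502 CPM against 57.0, Spen, a transcriptional repressor, with 176 against 11.5, and Kdm6b, a histone demethylase, with 159 against 14.3. The part of depth and RNA content in these differences was not tested. Of the leading genes, Lrat stood at 308 and 338 CPM, Ednrb at 613 and 661, and Itga1 at 224 and 189 in community clusters 17 and 13. Others differed, with Serpinf1 at 169 and 376 CPM and Acta2 at a log2 ratio of -1.79, both called lower in community cluster 17, and Plxna4 at 1085 and 535, called higher there. On plate liver_440s alone Acta2 and Plxna4 were called in the same directions, and Serpinf1 was not called.

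**Figure D5:**
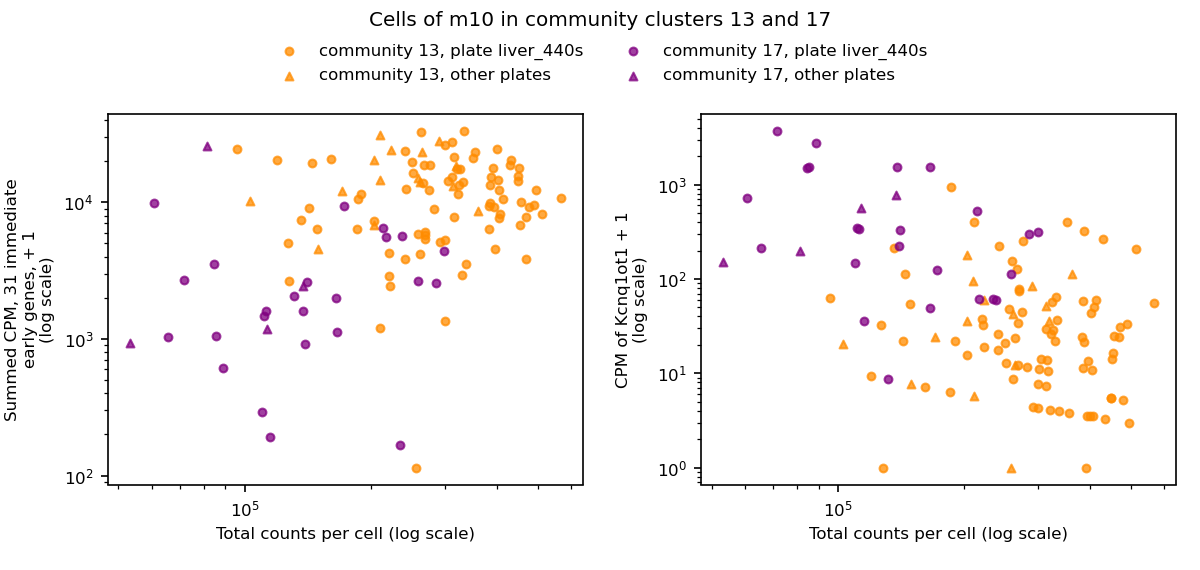
Summed CPM of the 31 immediate early genes (left) and CPM of Kcnq1ot1 (right), each plus 1, against total counts per cell, all on log axes, for the cells of m10 in community cluster 13 (orange) and 17 (purple), with circles for plate liver_440s and triangles for other plates. Cells of community cluster 17 have fewer counts, sit lower for the immediate early genes, with a median of 2041 CPM against 11750, and higher for Kcnq1ot1, with 309 against 23.5.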

How the data were processed

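The authors aligned the reads to the mouse genome (GRCm38, mm10) and counted them per gene with featureCounts, and they deposited raw counts for 46517 genes and 92 ERCC spike-ins in 3491 cells on 22 plates. Bowtie, Bowtie2, Subread, bcl2fastq and Seurat are also in the submitters' processing notes. Cluster labels were taken from the deposited annotation, which the authors made with pagoda2 on the mesenchymal subset. The members and the gene lists were chosen with earlier results of these data known.

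From the counts of 3451 cells, sums per cluster were scaled to CPM without the spike-ins (Python 3.11.15, numpy 2.4.6, pandas 2.3.3, scipy 1.17.1). The 40 cells on 4 small plates were not used, and none of them belonged to m10, m1, m4 or m8. Log2 ratios had 0.5 CPM added, and the rule for calls asked for a 2-fold difference, 10 CPM and a count in 50% of the cells on the higher side. The medians given for a list cover its members at 10 CPM or more. TMM factors came from edgeR 4.0.16 in R 4.3.3 and were 1.068 for m10, 1.044 for m1, 1.060 for m4 and 0.847 for m8. To compare shares across depths, cells were thinned to 50000 counts, which 1 cell of m1 did not reach.

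Genes named were Pdgfra and Ncam1, genes the study names for fibroblast clusters, up to 15 genes called in each direction against the 3 clusters together and 2-fold from each, up to 10 called in each direction against m8 and on the main plate, and from each list the 6 members highest in m10 and up to 4 called. Other genes, such as Gja4 and those of the 2 community clusters, were named after their values were seen. No doublet caller was run here. Per the study's methods, the sorter gates were set on single cells, and cells with very many genes or signs of RNA from other cell types were removed before deposit. Cells are not replicates, and with 1 male pool there was no test. The stellate signature was used as listed, with 186 symbols, and the text of its source gives another number. Some list members are not reported here. Sums and calls were checked on simulated data. Alternatives changed scaling, depth, filter, detection limit, reference clusters and plates.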

Additional observations from a re-analysis of the deposited data

How the results depend on the processing

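No paired analysis was possible because the labels neither number replicates within the male pool nor tie plates to animals, and no result comes from a test. Counts below are genes higher and lower in m10. By TMM the comparison with m8 gave 108 and 141. With cells thinned to 50000 counts the 3 clusters together gave 67 and 27, m1 gave 127 and 81, m8 gave 139 higher, and the main plate 34 lower. With no filter on low values the counts were 2299 and 2499 together, 3641 and 2786 for m1, 3187 and 2620 for m4, 4908 and 1877 for m8, and 1796 and 3079 on the main plate. By construction the added genes were under the filter. Without plate liver_440s, with 22 cells of m10, they were 169 and 238 together, with 490 lower for m1, 513 for m4 and 117 for m8. Without m8 in the reference 80 were lower. At 20 counts per cell the shares of m10 cells were 69.3% for Pdgfra and 14.2% for Ncam1. The following alternatives were chosen after seeing the data. At a limit of 20 counts per cell, 36 and 13 were called together, 59 and 19 for m1, 95 and 54 for m4, 57 and 18 for m8, and 41 and 20 on the main plate. Within plates, 193 genes were lower than m4 on plate liver_440s, 231 lower than m8 on plate liver_Rb_573s, and 692 higher and 1175 lower than m1 on plate liver_128s. Except where the filter or the number of cells changed, the cause was not tested. Of 244 named genes, 51 of them called, Itga9 (-0.70) and Acta2 (0.07) turned without plate liver_440s, and none turned under the other 7 settings that can change the ratio of a single gene, which leave out the fits within plates, where Adra2b (-4.46), Notch3 (-2.90) and Tbx20 (-5.85) turned against m8 and Acta2 (3.15) against m1, among others. Depth limits low genes most in m8, and levels on plates liver_Rb_573s and liver_128s rest on 7 and 5 cells.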
